A study of Mus musculus with 5 samples.

Results

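The genes described here are 9 phospholipase A2 genes, Pla2g2d, Pla2g2e, Pla2g4a, Pla2g5, Pla2g6, Pla2g7, Pla2g10, Pla2g12a and Pla2g15. They were chosen by symbol from a table of 78334 mouse gene identifiers, and all 9 were among the 24779 genes with enough counts to be fitted. Pla2g10 passed that filter through the control library alone. The set was chosen with the values of all 5 libraries in view, and Pla2g5 had already stood out between resveratrol and untreated obesity. Levels and differences of the 9 genes are therefore a description, with no test.

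Messenger RNA was sequenced from visceral adipose tissue of male C57BL/6 mice, an inbred laboratory strain. Per the labels, the control group (1 library) came from chow-fed mice, and untreated groups received the vehicle. Ages and times were the same in all groups, the control included. The mice were 8 weeks old at diet start and 16 weeks old at treatment start. Treatment or vehicle lasted 28 days, and the whole course 12 weeks. The obesity group (2 libraries) had eaten high-fat food (60% of energy as fat) for 8 weeks from the age of 8 weeks, and then received the vehicle. The resveratrol group (2 libraries) ate the same food and was then gavaged daily with resveratrol, a polyphenol of plants, for 28 days from the age of 16 weeks at a dose of 2.25 mg/kg. Whether paired libraries of a group stem from different animals is not stated, so the spread between them may be technical. The fat depot that was dissected is not named either, and the control group has no replicate.

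Phospholipases A2 cut the fatty acid from the middle carbon of a membrane phospholipid and release a free fatty acid and a lysophospholipid. When the fatty acid is arachidonic acid, cyclooxygenases and lipoxygenases turn it into prostaglandins and leukotrienes. The secreted enzymes are small, calcium-dependent proteins that act outside the cell on lipoproteins, membranes and microbes. The cytosolic, calcium-independent and lysosomal enzymes are larger and act within the cell. In mouse fat, Pla2g5 and Pla2g2e are known as secreted enzymes of adipocytes that are induced in diet-induced obesity.

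Levels are CPM, the share of a library's reads that a gene received, scaled by edgeR's TMM factors. The total count ranged from 19540961 to 27026597 per library, so 3 counts, the limit that a count of 0 allows, correspond to 0.105 to 0.157 CPM. That limit covers counting error only. A value after ± is the SD over the 2 libraries of a group.

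The libraries differed in their levels of cell type markers. The summed level of 12 adipocyte markers was 34577 and 38429 CPM in the obesity libraries and 36809 CPM in resveratrol library 2. It was 8020 CPM in resveratrol library 1 and 501 CPM in the control library, although no adipocyte marker was at 0 in any library. All 12 epididymis markers, genes of the duct that stores sperm, were detected in the control library, where they summed to 55888 CPM. Their sums were 29.9 and 3.76 CPM in obesity, 3522 CPM in resveratrol library 1 and 8.21 CPM in resveratrol library 2. In resveratrol library 1 a single marker, Crisp1, gave 3397 CPM of that sum and Aqp9 gave 121 CPM, whereas 4 (Lcn8, Lcn9, Defb20 and Cst12) were at 0 and Gpx5 was at 0.182 CPM. The 8 smooth muscle markers summed to 46143 CPM in resveratrol library 1, against 363 to 2339 CPM in the other 4 libraries. The 11 macrophage markers summed to 485 CPM in resveratrol library 1 and 149 CPM in the control library, against 2896 to 3614 CPM in the other 3. In bulk tissue, fewer cells of a type and less RNA per cell cannot be told apart. Results that involve the control library or resveratrol library 1 are therefore given library by library.

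Pla2g5, Pla2g2e and Pla2g2d are close neighbours on mouse chromosome 4, in a run of secreted phospholipase genes that also holds Pla2g2a, Pla2g2c and Pla2g2f. Their 3 profiles over the 5 libraries differed, so the 250 bases before their start sites are shown, for Pla2g5 at each of the 2 start sites that RefSeq lists. The sequences are RefSeq's on build GRCm38.p6, whereas the counts were made on GRCm39, and which Pla2g5 start was used in these libraries cannot be read from counts per gene. Capitals mark matches on either strand to 4 motifs. They are the core of the TATA box, TATAAA, the half-site of many nuclear receptors, AGGTCA, the binding word of Sp1-type factors, GGGCGG, and the word CCAAT.
Pla2g5, upstream start, minus strand, chr4:138863470-138863719: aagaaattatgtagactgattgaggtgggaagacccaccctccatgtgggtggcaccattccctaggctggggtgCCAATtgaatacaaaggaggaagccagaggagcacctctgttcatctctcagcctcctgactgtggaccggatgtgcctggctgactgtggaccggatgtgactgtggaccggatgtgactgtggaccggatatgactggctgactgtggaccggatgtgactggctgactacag
Pla2g5, downstream start, minus strand, chr4:138819258-138819507: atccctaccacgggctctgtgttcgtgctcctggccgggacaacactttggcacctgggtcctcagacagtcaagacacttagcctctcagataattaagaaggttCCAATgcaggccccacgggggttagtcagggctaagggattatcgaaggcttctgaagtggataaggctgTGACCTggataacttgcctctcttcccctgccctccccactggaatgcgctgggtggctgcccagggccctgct
Pla2g2e, plus strand, chr4:138877692-138877941: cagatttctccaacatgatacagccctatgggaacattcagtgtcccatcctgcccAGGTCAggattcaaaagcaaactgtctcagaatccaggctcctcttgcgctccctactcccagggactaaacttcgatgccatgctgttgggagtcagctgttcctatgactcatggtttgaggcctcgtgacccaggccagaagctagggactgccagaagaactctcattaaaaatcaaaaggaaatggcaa
Pla2g2d, plus strand, chr4:138775485-138775734: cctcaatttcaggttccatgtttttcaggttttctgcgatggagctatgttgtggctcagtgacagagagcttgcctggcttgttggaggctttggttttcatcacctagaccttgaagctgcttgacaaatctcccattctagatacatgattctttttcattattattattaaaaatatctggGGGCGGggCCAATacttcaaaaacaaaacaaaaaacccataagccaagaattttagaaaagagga

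None of these 4 windows held TATAAA, which 12.4% of 32851 RefSeq promoter windows of the same length hold. AGGTCA was in the Pla2g2e window and, on the opposite strand, in the downstream Pla2g5 window, and 14.0% of all windows hold it. CCAAT was in both Pla2g5 windows and in that of Pla2g2d (33.8% of all windows), and GGGCGG was in that of Pla2g2d alone (32.7%). No 2 of these matches overlapped. The upstream Pla2g5 window also held 5 copies of the 15-base word tgactgtggaccgga, which was noticed after the sequence had been read and which 1 of the 32851 windows holds. These matches describe letters in a window, and no binding was measured.

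Pla2g5 (ENSMUSG00000041193), which encodes the group V secreted enzyme, was highest in the control library and lowest with resveratrol. Its count was 1823 in the control, 302 and 243 in the obesity group (libraries 1 and 2), and 19 and 35 in the resveratrol group. These counts correspond to 63.6, 15.8, 11.6, 0.863 and 1.36 CPM. The 3 groups did not overlap. Both resveratrol libraries lay below both obesity libraries in 16.7% of all tested genes. Both obesity libraries lay below the control library in 48.6%.

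With resveratrol, Pla2g5 averaged 1.11 ± 0.352 CPM (SD, n = 2), against 13.7 ± 2.96 CPM (SD, n = 2) in obesity. That is a log2 difference of -3.61 with a standard error (SE) of 0.412, or a 12.3-fold lower mean. Resveratrol library 1 stood at 6.32% of the obesity mean and resveratrol library 2 at 9.97%. Relative to obesity, the adipocyte list was at 22.0% in library 1 and at 101% in library 2, and the macrophage list at 14.9% and 101%. In resveratrol library 2, Pla2g5 was thus low while the summed adipocyte and macrophage markers were near their obesity level. Other lists were not level in that library, where 6 endothelial markers summed to 186% and 6 mesothelial markers to 281% of the obesity mean. The mesothelial gene Upk3b was at 108 CPM there, against 23.6 and 6.00 CPM in obesity. The part of these cell types in the Pla2g5 difference was not tested. Under every alternative run, left-out libraries included, the log2 difference lay between -3.97 and -3.31.

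Markers of other kinds differed along with Pla2g5. Of 6 transcription factor genes known from subcutaneous fat depots, Tbx15, Hoxc10, Hoxc9 and En1 were lower in both resveratrol libraries than in both obesity libraries. In 16.7% of all tested genes both resveratrol libraries lay below both obesity libraries. The list summed to 69.4 and 75.6 CPM in obesity and to 8.87 CPM in resveratrol library 2, and En1 was at 0 in resveratrol library 1 and in the control library. In resveratrol library 1 its sum was 98.8 CPM, of which Hoxa10 gave 93.3 CPM. Of 6 visceral depot genes, Wt1, Nr2f1 and Gata4 were higher in both resveratrol libraries than in both obesity libraries (16.9% of all tested genes), Gata4 with at most 6 counts in any library. The others, Tcf21, Gata6 and Hoxa5, were not. In resveratrol library 1 Hoxa5 was at 5.50 CPM, below both obesity libraries (10.7 and 8.24 CPM). Gata6 was at 5.13 CPM there, between them (6.52 and 4.28 CPM). The visceral list summed to 37.1 and 19.9 CPM in obesity and to 103 and 72.2 CPM with resveratrol. Nr2f1 gave 65.8 CPM of the sum in resveratrol library 1. Mast cells are a further known source of group V enzyme. All 7 mast cell markers were higher in both resveratrol libraries than in both obesity libraries (16.9% of all tested genes). The list summed to 32.3 and 20.0 CPM in obesity, to 120.3 CPM in resveratrol library 1 and to 62.2 CPM in resveratrol library 2. Kit gave 29.4 CPM of the sum in resveratrol library 1, and 22.7 of 22.9 CPM in the control library. Some of these markers had few counts in obesity, where Ms4a2 had 7 and 2 and Fcer1a 1 and 3. The part of these markers in the Pla2g5 difference was not tested.

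Against the control library the direction of Pla2g5 was downward in obesity, by a log2 difference of -2.22 (SE 0.431), the control level being 4.65-fold the obesity mean. The control library held 1.37% of the obesity mean of the adipocyte list and 55888 CPM of epididymis markers. The part of the epididymal transcripts in the control level of Pla2g5 was not tested.

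**Figure D1:**
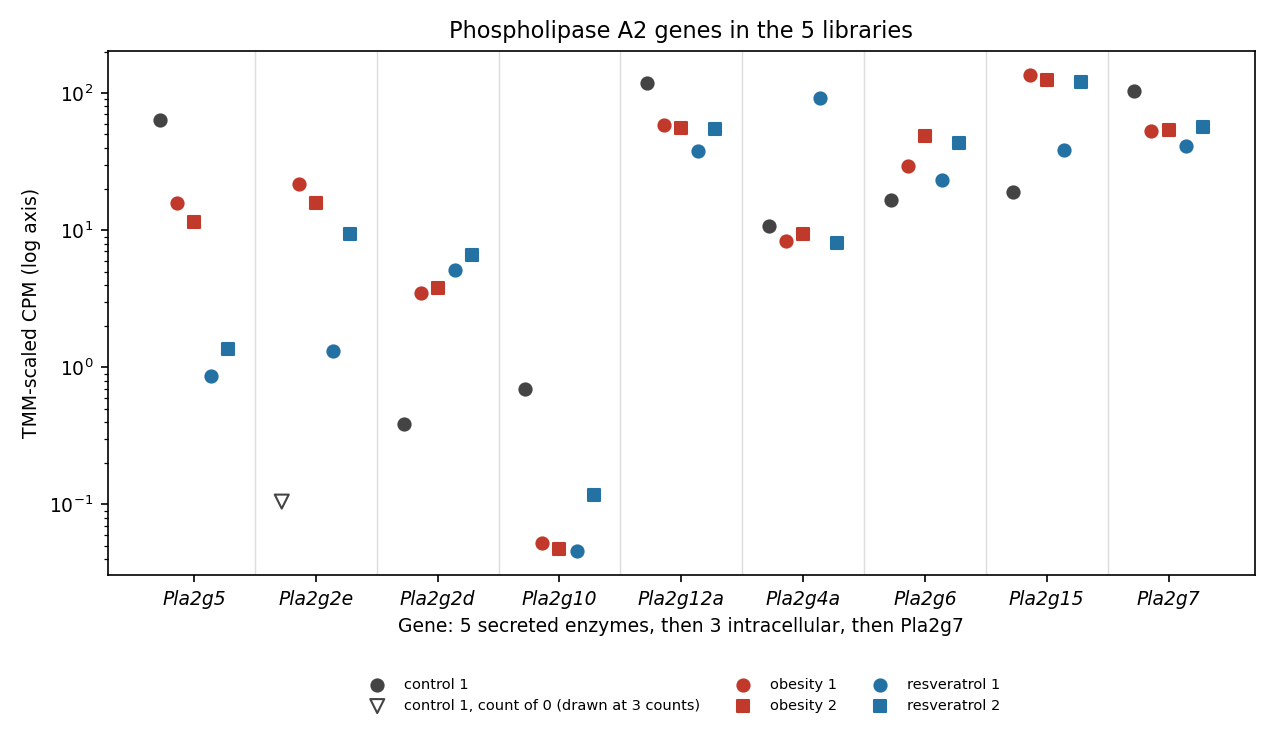
TMM-scaled CPM (log axis) of the 9 phospholipase A2 genes in each of the 5 libraries, with colour for group and shape for replicate. Pla2g5 runs from 63.6 CPM in the control library to 0.863 CPM in resveratrol library 1, and the open triangle marks the count of 0 of Pla2g2e in the control library, drawn at 3 counts.

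Pla2g2e (ENSMUSG00000028751), the group IIE secreted enzyme gene, had the opposite pattern in the control library. Its count was 0 there, 416 and 334 in the obesity libraries, and 29 and 243 in the resveratrol libraries, or 21.7, 15.9, 1.32 and 9.45 CPM from obesity library 1 to resveratrol library 2. The obesity mean of 18.8 ± 4.10 CPM (SD, n = 2) was at least 179.7-fold higher than the limit of 3 counts in the control library. Both resveratrol libraries lay below both obesity libraries, at 7.01% and 50.3% of the obesity mean, a log2 difference of -1.80 (SE 1.01). The 2 resveratrol libraries differed from each other 7.17-fold. Without resveratrol library 1 the log2 difference was -0.98, and with library 2 left out it was -3.82. Resveratrol library 1, the lower of them, also held 22.0% of the obesity level of the adipocyte list. The control library held 1.37% of that level, and 55888 CPM of epididymis markers. The part of adipocytes or of epididymal transcripts in the Pla2g2e levels was not tested.

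Pla2g2d (ENSMUSG00000041202) encodes the group IID secreted enzyme, known from dendritic cells and macrophages of lymphoid tissue. Its CPM was 0.384 in the control, 3.50 and 3.76 in obesity, and 5.09 and 6.65 with resveratrol, on 11 to 171 counts. It was the only 1 of the 9 genes with both resveratrol libraries above both obesity libraries. The log2 difference was 0.69 (SE 0.483), a size of 1.62-fold, and leaving out libraries or changing the fit moved it between 0.49 and 0.89. In resveratrol library 1 the 8 dendritic cell markers summed to 26.2 CPM, against 195 and 227 CPM in obesity. Pla2g2d stood at 140% of its obesity mean there, and that list at 12.4%. A single marker, Itgax, gave 151 and 180 CPM of the obesity sums and 11.8 CPM of that in resveratrol library 1. The median over the markers of the list was 30.9% there. In resveratrol library 2 the list summed to 209 CPM. The part of dendritic cells in the Pla2g2d level was not tested.

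The other members of the chromosome 4 run were at or near 0. Pla2g2a and Pla2g2f had a count of 0 in every library, and Pla2g2c had 1 count, in obesity library 1. C57BL/6 mice are known to carry a disrupted Pla2g2a gene. Beyond the run, the neighbour next to Pla2g2e is Otud3, a deubiquitinase gene. Its level was 6.63 CPM in the control, 11.5 and 13.9 CPM in obesity, and 5.32 and 12.3 CPM with resveratrol. In resveratrol library 2 Otud3 was near its obesity level, and Pla2g5 was at 9.97% of its own obesity mean. In resveratrol library 1 both genes were below both obesity libraries. Whether neighbours in this region change together was not tested.

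Pla2g12a (ENSMUSG00000027999), an atypical secreted enzyme gene, was present in every library. It was at 119 CPM in the control, 58.5 and 55.3 CPM in obesity, and 37.8 and 54.7 CPM with resveratrol. The control library also held 55888 CPM of epididymis markers, whose part in its Pla2g12a level was not tested. The resveratrol libraries lay below both obesity libraries, but resveratrol library 2 was at 96.2% of the obesity mean, and the log2 difference was -0.30 (SE 0.284). It was -0.04 with resveratrol library 1 left out and -0.58 with library 2 left out. CPM is not corrected for gene length, so a share of summed CPM does not rank the genes against each other. Among the 5 secreted genes Pla2g12a made up 58.8% and 63.9% of the summed CPM in obesity and 83.8% and 75.7% with resveratrol. Pla2g5 made up 34.5% of that sum in the control library, 15.8% and 13.4% in obesity, and 1.91% and 1.88% with resveratrol. The sum itself was 184 CPM in the control, 99.5 and 86.6 CPM in obesity, and 45.2 and 72.3 CPM with resveratrol. Per kilobase of exon, Pla2g2e was above Pla2g12a in both obesity libraries, at 23.7 and 17.3 against 15.9 and 15.02 CPM. On that scale Pla2g12a was above Pla2g2e in the control library and in both resveratrol libraries.

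Pla2g10 (ENSMUSG00000022683), the group X secreted enzyme gene, known from gut epithelium and the sperm acrosome, had 20 counts in the control library and 1 to 3 counts in each of the others. These counts are 0.697 CPM in the control and 0.0454 to 0.117 CPM elsewhere. At this depth no difference between obesity and resveratrol was detectable for it. In the control library the 8 testis germ cell markers summed to 183 CPM, with Prm1 at 0, against 1.36 to 5.36 CPM in the other 4 libraries. Their part in the control level of Pla2g10 was not tested.

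Pla2g4a (ENSMUSG00000056220) encodes the cytosolic enzyme that prefers arachidonic acid. The control library gave 10.8 CPM and the obesity libraries 8.30 and 9.33 CPM. Resveratrol library 1 stood alone at 92.5 CPM, or 1049.5% of the obesity mean, and resveratrol library 2 was at 8.09 CPM, or 91.8%. The group difference of 2.51 on the log2 scale (SE 1.20) thus rested on 1 library, and without it the difference was -0.11. In the same library the smooth muscle list stood at 46143 CPM, and the part of smooth muscle in the Pla2g4a level was not tested.

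Pla2g6 (ENSMUSG00000042632), the calcium-independent enzyme gene, was at 16.6 CPM in the control, 29.5 and 48.7 CPM in obesity, and 23.4 and 43.6 CPM with resveratrol. The obesity and resveratrol libraries overlapped, and the log2 difference of -0.23 (SE 0.455) was within the spread. It was 0.17 without resveratrol library 1, 0.18 without obesity library 2, -0.53 without obesity library 1 and -0.74 without resveratrol library 2. Pla2g15 (ENSMUSG00000031903), which encodes the lysosomal enzyme, was at 19.1 CPM in the control, 136.5 and 124 CPM in obesity, and 38.2 and 121 CPM with resveratrol. Its obesity mean was 6.82-fold the control level. Resveratrol library 1 was at 29.2% of the obesity mean and resveratrol library 2 at 93.1%. The log2 difference of -0.71 (SE 0.611) was -0.09 with resveratrol library 1 left out and -1.77 with library 2 left out. The macrophage list, whose cells are rich in lysosomes, stood at 14.9% and 101% in those libraries. In the control library that list stood at 4.59%, and Pla2g15 at 14.7%. The adipocyte list ran in the same order, at 22.0%, 101% and 1.37%. The part of either cell type in the Pla2g15 level was not tested.

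Pla2g7 (ENSMUSG00000023913) encodes the plasma enzyme that inactivates platelet-activating factor. It was at 104 CPM in the control, 53.4 and 53.5 CPM in obesity, and 41.1 and 57.1 CPM with resveratrol. Resveratrol overlapped obesity, with a log2 difference of -0.12 (SE 0.269), which was 0.11 with resveratrol library 1 left out and -0.37 with library 2 left out. The control level was 1.95-fold the obesity mean. That library held 149 CPM of macrophage markers and 55888 CPM of epididymis markers. The part of either in the Pla2g7 level was not tested. In the GENCODE M21 annotation Pla2g7 shares 319 exonic bases with an antisense gene, 1700071M16Rik. That gene had 3 to 30 counts per library against 905 to 2983 for Pla2g7. No other member shared exonic bases with another gene there.

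**Figure D2:**
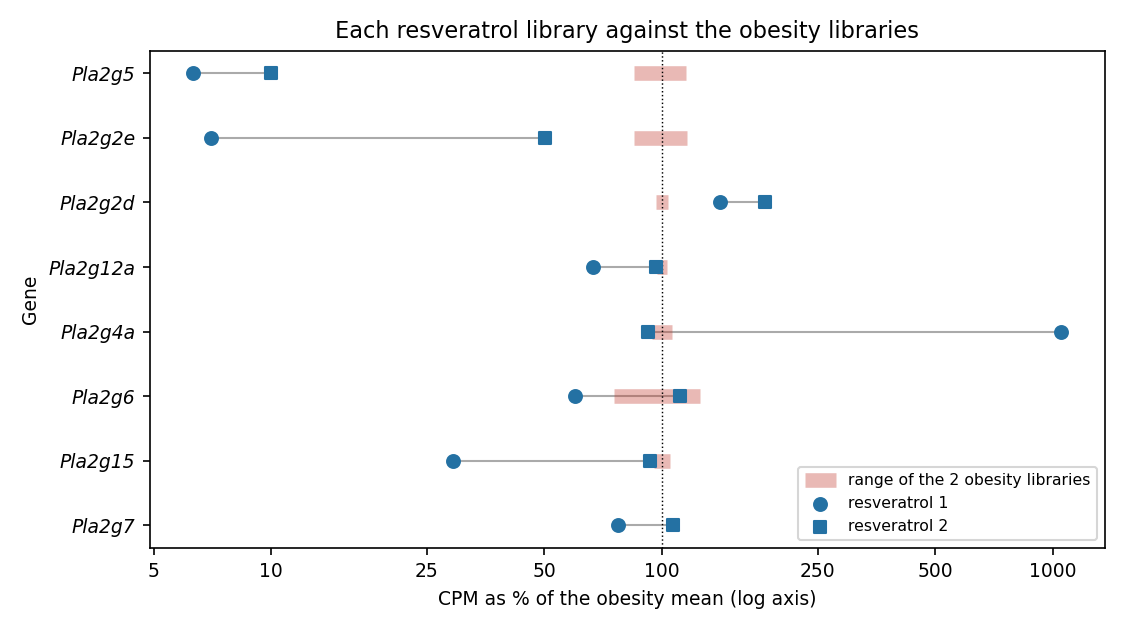
CPM in each resveratrol library as a percentage of the obesity mean (log axis) for 8 genes, with a band for the range of the 2 obesity libraries; Pla2g10 is left out for its few counts. Pla2g5 is at 6.32% and 9.97%, whereas Pla2g4a is at 1049.5% in resveratrol library 1 and 91.8% in resveratrol library 2.

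Over the 9 genes, both resveratrol libraries lay below both obesity libraries for 4 (Pla2g2e, Pla2g5, Pla2g12a and Pla2g15), against 16.7% of all tested genes, and above them for Pla2g2d, against 16.9%. Nothing is read from these shares, since the set was chosen with this comparison known. For Pla2g12a and Pla2g15, resveratrol library 2 and obesity library 2 were within counting error of each other. They were at 54.7 and 55.3 CPM for Pla2g12a, and at 121 and 124 CPM for Pla2g15. With resveratrol library 2 alone the genes below both obesity libraries numbered 5 (29.9% of all tested genes), and with resveratrol library 1 alone 7 (37.8%). Those above numbered 3 (31.9%) and 2 (43.0%). The median log2 difference of the 9 genes was -0.23, against 0.05 over all tested genes. It was -0.04 without resveratrol library 1, -0.58 without resveratrol library 2 and -0.12 without obesity library 2. For obesity against control, Pla2g2d, Pla2g2e, Pla2g6 and Pla2g15 were higher in both obesity libraries (40.8% of all tested genes) and the other 5 lower (48.6%). Their median log2 difference was -0.29, against -0.10 over all tested genes, and it was -0.19 without obesity library 1. With genes that had a count of 0 in a whole group set at their bound, the medians over all tested genes were -0.12 for obesity against control and 0.01 for resveratrol against obesity, and those of the 9 genes were the same.

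Across all genes, edgeR's quasi-likelihood test called 0 genes in either comparison at an adjusted p of 0.05 (0.0% of 24779). For obesity against control 6018 genes had an unadjusted p under 0.05, and 581 for resveratrol against obesity. DESeq2 called 4524 (18.3%) and 219 (0.884%), and limma-voom 0 and 0. The edgeR count of 0 does not show that genes did not differ, since the same test also missed most large changes placed in simulated data. Those data gave every gene the same spread, the common estimate from these libraries, whereas the spread of real genes differs.

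Per kilobase of exon in GENCODE M21, a scale on which genes can be set side by side, the order of the 9 genes differed between libraries. In obesity Pla2g15 was first, at 45.3 and 41.3 CPM per kilobase. Pla2g2e (23.7 and 17.3) and Pla2g7 (18.4 and 18.4) came next and overlapped, and Pla2g12a followed at 15.9 and 15.02. Pla2g5 (5.46 and 4.01) and Pla2g6 (5.42 and 8.97) overlapped at the next level, above Pla2g2d (1.56 and 1.68) and Pla2g4a (1.298 and 1.46). With resveratrol Pla2g5 was second lowest in both libraries, at 0.299 and 0.472 CPM per kilobase, above Pla2g10 alone. In the control library it had rank 3, at 22.0, below Pla2g7 at 35.8 and Pla2g12a at 32.4. Resveratrol library 1 alone had Pla2g4a first, at 14.5, with Pla2g7 at 14.2. The exon lengths come from another annotation than the counts, so this order is approximate.

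**Figure D3:**
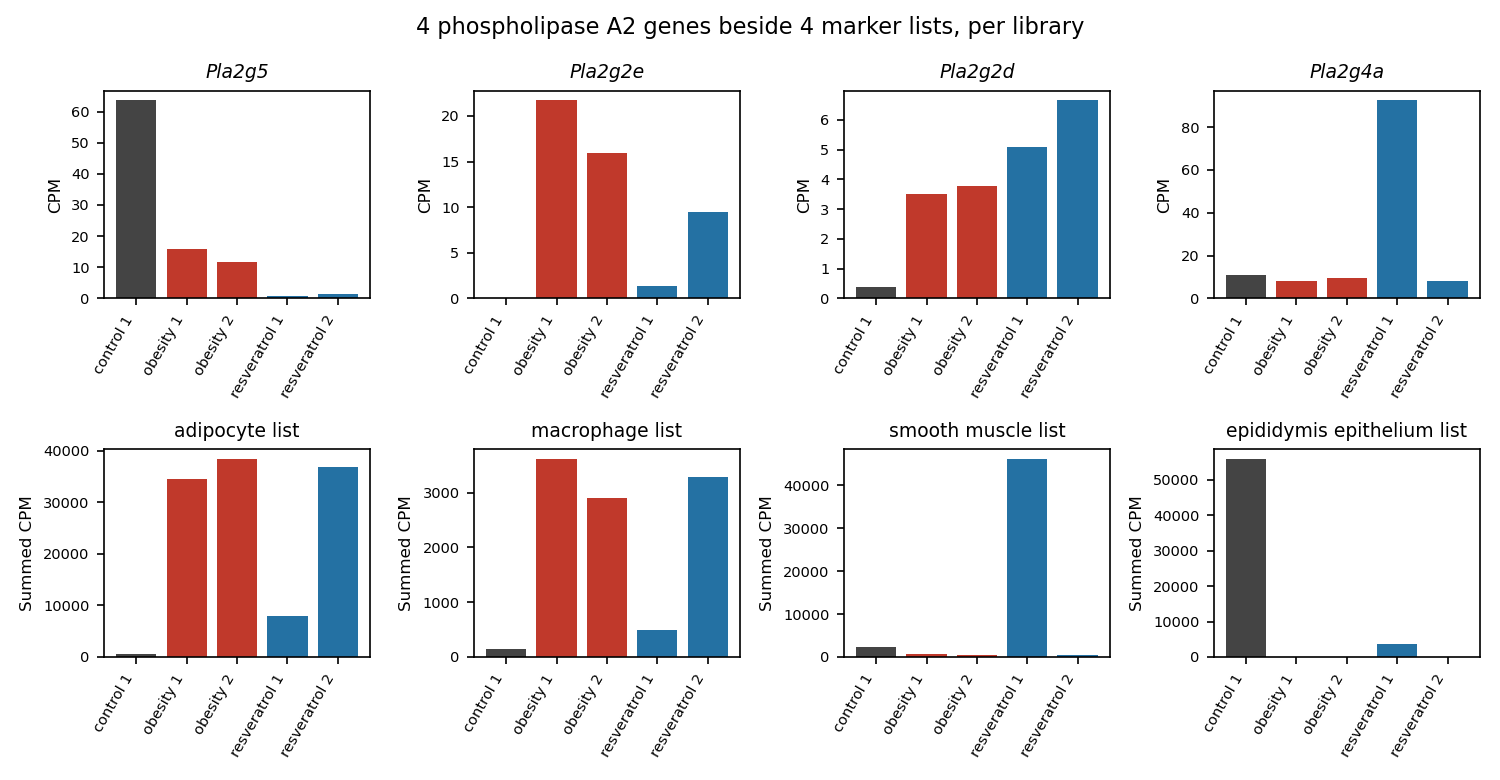
Bars give the CPM of Pla2g5, Pla2g2e, Pla2g2d and Pla2g4a (top) and the summed CPM of the adipocyte, macrophage, smooth muscle and epididymis marker lists (bottom) in each library, each panel on its own axis from 0. In resveratrol library 2 Pla2g5 is at 1.36 CPM while the adipocyte list is at 36809 CPM, and in resveratrol library 1 Pla2g4a is at 92.5 CPM where the smooth muscle list is at 46143 CPM.

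The genes with profiles nearest to Pla2g5 were sought among 14172 other genes with a symbol and a mean of at least 1 CPM. Likeness was the root mean square difference of log2 CPM over the 5 libraries after each gene was centred on its own mean. The nearest were Il13ra2, a decoy receptor gene for interleukin 13, at 0.714, and Adh6b, an alcohol dehydrogenase gene, at 0.777. Xlr4a (0.93), Galnt12 (0.95), which encodes an enzyme of O-glycosylation, and Runx2 (0.961), a bone transcription factor gene, followed. Il13ra2 was at 4.12 CPM in the control, 2.09 and 1.90 CPM in obesity, and 0 counts and 0.311 CPM in resveratrol libraries 1 and 2. Runx2 was at 80.7 CPM in the control, 10.4 and 10.2 CPM in obesity, and 1.499 and 6.54 CPM with resveratrol. All 5 shared with Pla2g5 the highest value in the control library and the lowest in resveratrol library 1. They were chosen for likeness over these same libraries, so nothing is read from that shared shape. None of the 5 came as low in resveratrol library 2 as Pla2g5, which was at -2.26 from its own mean there on the log2 scale, against -1.19 to -0.57 for the others.

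**Figure D4:**
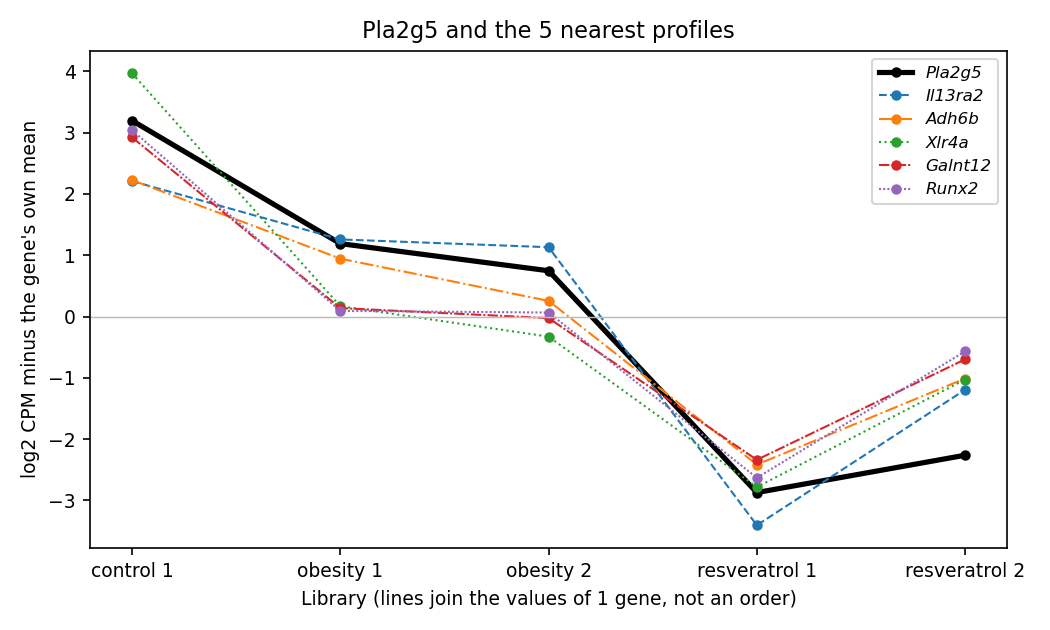
log2 CPM minus the gene's own mean in each library for Pla2g5 (thick line) and the 5 genes with the nearest profiles, chosen for likeness over these same libraries. All 6 are highest in the control library and lowest in resveratrol library 1, and in resveratrol library 2 Pla2g5 is at -2.26 while the others lie between -1.19 and -0.57.

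Other phospholipase A2 genes, 20 in a list, gave 14 that could be fitted. Of these, both obesity libraries were above the control library for 5 (35.7%, against 40.8% of all tested genes) and below it for 8 (57.1%, against 48.6%). Both resveratrol libraries were above both obesity libraries for 3 (21.4%, against 16.9%) and below them for 3 (21.4%, against 16.7%). Their median log2 difference was -0.82 for obesity against control, against -0.10 over all tested genes, and 0.01 for resveratrol against obesity, against 0.05. Without resveratrol library 1 the latter was -0.08. Plaat3, the adipocyte phospholipase that restrains lipolysis, had the highest level of the list. It was at 9.24 CPM in the control, 569.96 and 585 CPM in obesity, and 139.9 and 644 CPM with resveratrol, which follows the order of the adipocyte list over these libraries except in resveratrol library 2, its highest. Pnpla8, the mitochondrial and peroxisomal calcium-independent enzyme gene, was at 53.9 CPM in the control, 148 and 147 CPM in obesity, and 66.7 and 129 CPM with resveratrol. Pafah1b2, a catalytic subunit gene of intracellular platelet-activating factor acetylhydrolase, was at 72.7 CPM, 86.7 and 86.6 CPM, and 60.4 and 81.4 CPM. Pla2g4e, a cytosolic enzyme gene chosen after its values were seen, was at 23.4 CPM in resveratrol library 1 and at 0.0952 to 1.88 CPM in the other 4 libraries.

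Enzymes of phospholipid remodelling and of related lysophospholipid steps were listed as 16 genes, all fitted. Both resveratrol libraries were above both obesity libraries for 4 of them (25%, against 16.9% of all tested genes) and below for 2 (12.5%, against 16.7%). The median log2 difference was 0.28, against 0.05 over all tested genes, and it was 0.04 with resveratrol library 1 left out and 0.47 with library 2 left out. For obesity against control 6 were higher (37.5%, against 40.8%) and 7 lower (43.8%, against 48.6%) in both obesity libraries, with a median of -0.11, against -0.10. Lpcat3, the acyltransferase that puts polyunsaturated fatty acids back into phospholipids, was at 51.9 CPM in the control, 93.1 and 118 CPM in obesity, and 91.2 and 94.3 CPM with resveratrol. Enpp2, the autotaxin gene, whose product makes lysophosphatidic acid, was high in the control library (727 CPM) and in resveratrol library 1 (711 CPM). It was at 181 and 135 CPM in obesity and 106 CPM in resveratrol library 2. Gde1, a glycerophosphodiester phosphodiesterase gene, was at 83.6 CPM in the control, 73.8 and 70.3 CPM in obesity, and 152 and 82.1 CPM with resveratrol.

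Downstream of the released fatty acid, 17 eicosanoid synthesis genes were listed and all were fitted. Both resveratrol libraries were above both obesity libraries for 5 of them (29.4%, against 16.9% of all tested genes) and below for 3 (17.6%, against 16.7%). The median log2 difference was 1.26, against 0.05 over all tested genes, but it was 0.02 with resveratrol library 1 left out and 0.11 with library 2 left out. For obesity against control 6 were higher (35.3%, against 40.8%) and 9 lower (52.9%, against 48.6%) in both obesity libraries. That median was -0.86, against -0.10, and it was -0.44 without obesity library 1. The 3 with the highest mean level, Ptgs2, Ptges and Hpgd, owed that mean mostly to resveratrol library 1, so their high level there follows from how they were chosen. Ptgs2, the inducible cyclooxygenase gene, was at 1500.2 CPM there, against 7.04 CPM in resveratrol library 2, 0.783 and 0.476 CPM in obesity and 4.603 CPM in the control library. Ptges, a prostaglandin E synthase gene, was at 914 CPM there and between 28.3 and 64.9 CPM in the other 4 libraries. Hpgd, which encodes the enzyme that inactivates prostaglandins, was at 880.1 CPM there and between 24.0 and 63.8 CPM elsewhere. Alox15, a lipoxygenase gene chosen after its values were seen, was at 148 CPM in resveratrol library 2 and between 0.157 and 0.857 CPM in the other 4.

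**Figure D5:**
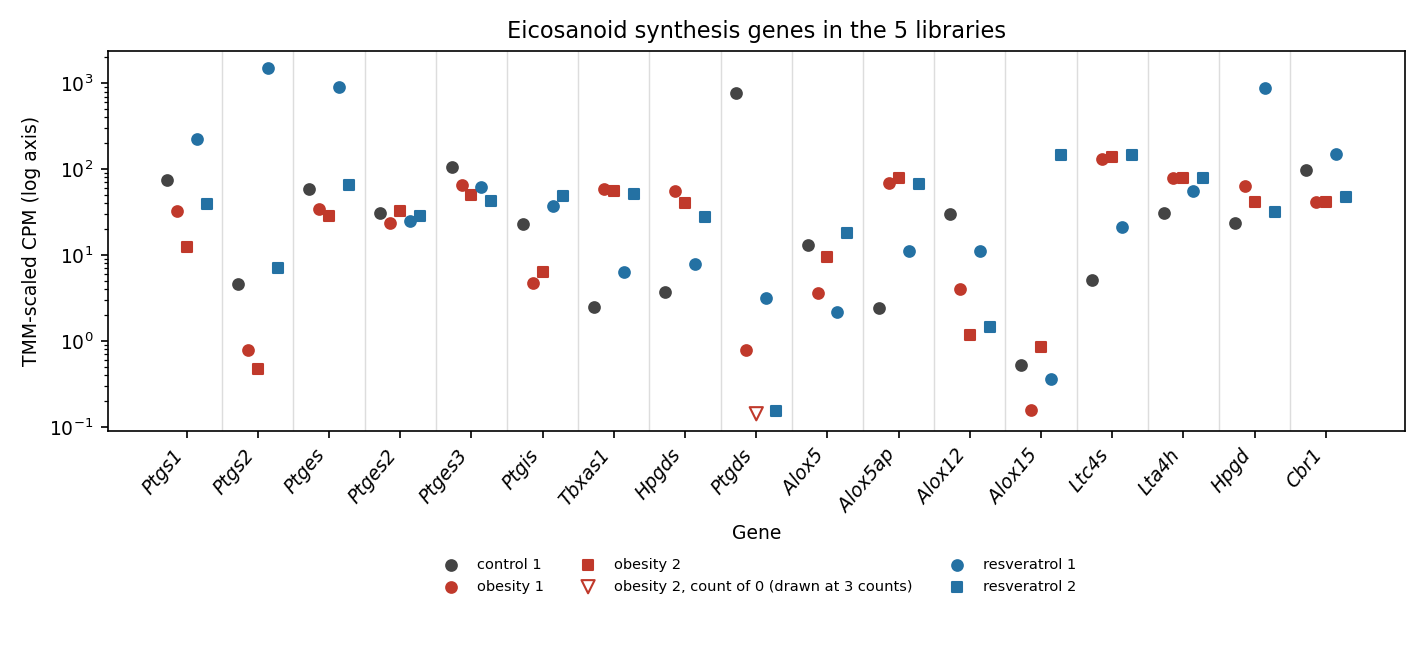
TMM-scaled CPM (log axis) of the 17 eicosanoid synthesis genes in each of the 5 libraries, with colour for group and shape for replicate; the open triangle is a count of 0 drawn at 3 counts. Ptgs2, Ptges and Hpgd stand at 1500.2, 914 and 880.1 CPM in resveratrol library 1, and Alox15 at 148 CPM in resveratrol library 2.

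Receptors for the enzymes and their lipid products were listed as 21 genes, of which 19 were fitted. Both obesity libraries were above the control library for 13 (68.4%, against 40.8% of all tested genes) and below it for 4 (21.1%, against 48.6%), with a median log2 difference of 1.01, against -0.10. The control library also held little of the adipocyte and macrophage lists, whose part in this was not tested. For resveratrol against obesity 4 were above (21.1%, against 16.9%) and 2 below (10.5%, against 16.7%). That median was -0.04, against 0.05, and it was 0.72 with resveratrol library 1 left out and -1.55 with library 2 left out. Pla2r1, the receptor that binds secreted phospholipases A2, was at 8.75 CPM in the control, 10.6 and 9.66 CPM in obesity, and 8.81 and 18.9 CPM with resveratrol. The obesity and resveratrol libraries overlapped, and the control library was about level with resveratrol library 1, the lowest of them. Ptafr, the platelet-activating factor receptor gene, was at 1.05 CPM in the control, 106 and 96.3 CPM in obesity, and 10.9 and 98.0 CPM with resveratrol. Ptger3, a prostaglandin E receptor gene, was at 0.244, 52.4, 74.9, 6.59 and 90.8 CPM from the control library to resveratrol library 2. Lpar6, a lysophosphatidic acid receptor gene, was at 14.6, 38.8, 19.9, 9.99 and 33.4 CPM in the same order. In Ptafr, Ptger3 and Lpar6 resveratrol library 1 was below both obesity libraries and resveratrol library 2 was not below both of them.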

How the data were processed

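RNA of 5 visceral adipose libraries was analysed. The authors deposited raw whole-number counts for 78334 Ensembl gene identifiers, made with featureCounts on GRCm39 after FastQC, per the submitters' processing notes. Libraries were stranded and poly-A selected, per the labels' protocols. Not given in the sources used here were the aligner, annotation release, strand setting and tool versions. Symbols were matched for 65.7% of identifiers.

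Counts were fitted in R 4.3.3 with edgeR 4.0.16. filterByExpr by group (minimum count 10, minimum total 15) kept 24779 genes, TMM factors scaled the libraries, and 1 robust quasi-likelihood model over the 5 libraries was tested with F tests and Benjamini-Hochberg adjustment at 0.05. Its spread comes from the obesity and resveratrol pairs, and the single control library is assumed to share it. SEs were obtained from the log2 difference and F. Fits were tested on simulated data with the common spread estimate for every gene, where edgeR missed most of the changes put in. DESeq2 1.42.0, limma-voom (limma 3.58.1), other scalings and filters, a replicate block and left-out libraries were alternatives. Counts of members and medians of lists without single libraries were added after seeing the data. log2 CPM for profiles used a prior count of 2. Figures were drawn with matplotlib 3.10.9.

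The members and lists were chosen with earlier results of these data known. Named were all 9 members, the 5 genes nearest in profile to Pla2g5, from each further list the 3 genes with the highest mean CPM, and Plaat3, Pla2r1 and the secreted cluster. Genes named outside that rule are Otud3, the marker genes and those said to be chosen after their values were seen.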

Additional observations from a re-analysis of the deposited data

How the results depend on the processing

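The count of genes called differed between fits, and the cause was not tested. For obesity against control it was 0 with edgeR's quasi-likelihood test on all 5 libraries, 2575 with no filter on low counts, 4524 with DESeq2 and 9269 with only the groups compared. Leaving out 1 library gave 0 to 9227, with 9227 without resveratrol library 1 and 9094 without resveratrol library 2. For resveratrol against obesity the count was 0, and it was 25 with no filter, 219 with DESeq2, and 66 without resveratrol library 1 and the control library together. Leaving out 1 library gave 0 to 4758, with 33 without resveratrol library 1 and 4758 without resveratrol library 2.

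Of 107 alternative values of the members' log2 differences for obesity against control, 1 changed sign and 106 moved by less than the SE. Of 122 for resveratrol against obesity, 8 changed sign, 5 moved by more than the SE (Pla2g2e, Pla2g6 and Pla2g15, each without a resveratrol library) and 109 by less. Pla2g5 kept its sign in both comparisons under every alternative run, from -2.44 to -2.01 and from -3.97 to -3.31. For resveratrol against obesity the sign changes were those of Pla2g4a, Pla2g6, Pla2g7 and Pla2g10. Leaving out 1 library, these ran from -0.11 to 3.40, -0.74 to 0.18, -0.37 to 0.11 and -0.11 to 1.16. Without resveratrol library 1 the values were -0.11 for Pla2g4a, 0.17 for Pla2g6 and 0.11 for Pla2g7, and the same values to 2 decimals without the control library as well. Pla2g6 was at 0.18 without obesity library 2, and Pla2g10 at -0.11 without resveratrol library 2. Pla2g10 had too few counts for the stricter filter of 50 counts, and for resveratrol against obesity it gave no value in any fit without the control library. Leaving out 1 library, the number of members with all resveratrol libraries below the obesity libraries ran from 4 to 7, and above them from 1 to 3. Medians were also taken without single libraries. Leaving out 1 library, those for resveratrol against obesity ran from -0.58 to -0.04 over the members and from 0.0 to 0.10 over all tested genes. They ran from -0.26 to 0.12 over the other phospholipase A2 genes and from -1.55 to 0.72 over the receptors. Without resveratrol library 1 and the control library the medians were -0.0145 over all tested genes, -0.12 over the other phospholipase A2 genes and 0.62 over the receptors. For obesity against control the remodelling enzymes ran from -0.22 to 0.0009.

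Replicate numbers 1 and 2 are shared by the obesity and resveratrol labels, but nothing says that they pair the samples. With the number as a replicate block, 0 genes were called in both comparisons, and Pla2g4a changed sign for obesity against control, to 0.81. Across genes, the deviations of same-numbered libraries correlated at 0.282.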
